A study of Canis lupus familiaris with 48 samples.

Results

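ENSCAFG00000015180 is a gene of the dog genome that the deposited count table lists on chromosome 7 and that stood far higher after every added solute than in control medium. It is 1 gene of 32704 in the table and of 12654 that were tested. It was picked by its identifier, from earlier results in which it was higher after each solute and varied widely between passages, so its levels against control are given here as a description, with no test. No source used here pairs the identifier with a gene name or a function, and none is given to it.

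The libraries come from MDCK I cells, an established line of dog kidney epithelium that grows as a tight sheet of cells. Culture lasted 144 h, and for its final 24 h the cells were kept in 1 of 4 media: with 200 mOsm of NaCl, raffinose or urea added (500 mOsm in all), or regular medium at 300 mOsm (control). Each group holds 12 libraries of polyadenylated RNA, 1 at each of 12 cell passages numbered from 1 to 19. A passage number counts how often cells were split and replated, here from a starting point that is not stated. The passages are of 1 cell line, whether the 4 libraries of a passage began as 1 culture is not stated, and p-values measure the spread between these libraries. In bulk libraries, fewer cells with a transcript and less transcript per cell cannot be told apart. Epithelial identity could not be checked by marker genes, because 0 of the identifiers are paired with symbols.

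Kidney tubule cells, above all those of the medulla, live with high and changing concentrations of salt and urea. NaCl and raffinose stay largely outside the cell, draw water out of it and so shrink it. Mammalian cells answer such hypertonicity by taking up or making small organic osmolytes, a program driven in large part by the transcription factor NFAT5 (TonEBP). Urea crosses most cell membranes, raises the osmolality on both sides and acts on cells mainly by other routes.

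On the CanFam3.1 build the gene lies on the plus strand of chromosome 7, from 28956363 to 28997731, a span of 41369 bases. Its annotated transcripts merge into 18 exons with 4327 exonic bases in all. Of these exons, 8 are exactly 186 bases long, namely exons 6 to 12 and exon 14, and the longest, exon 18, has 1543 bases. The annotation has 0 other genes that overlap it. The reads were counted without regard to strand, and reads from transcripts outside the annotation were not examined.

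In CPM (reads scaled to a common library size with edgeR's TMM factors), the 12 NaCl libraries ran from 22.84 to 104.0 with a median of 27.45. The 12 raffinose libraries ran from 14.1 to 101.4 with a median of 21.45. The urea libraries ran from 7.831 to 77.74 CPM with a median of 17.41. The control libraries ran from 0.1533 to 3.761 CPM with a median of 0.6105. Every library of each solute lay above every control library, and the lowest urea library was 2.08 times the highest control. Such a complete separation upward from control was seen in 13.2% of tested genes for NaCl, 14.3% for raffinose and 4.67% for urea, and in 1.3% for all 3 solutes at once.

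**Figure D1:**
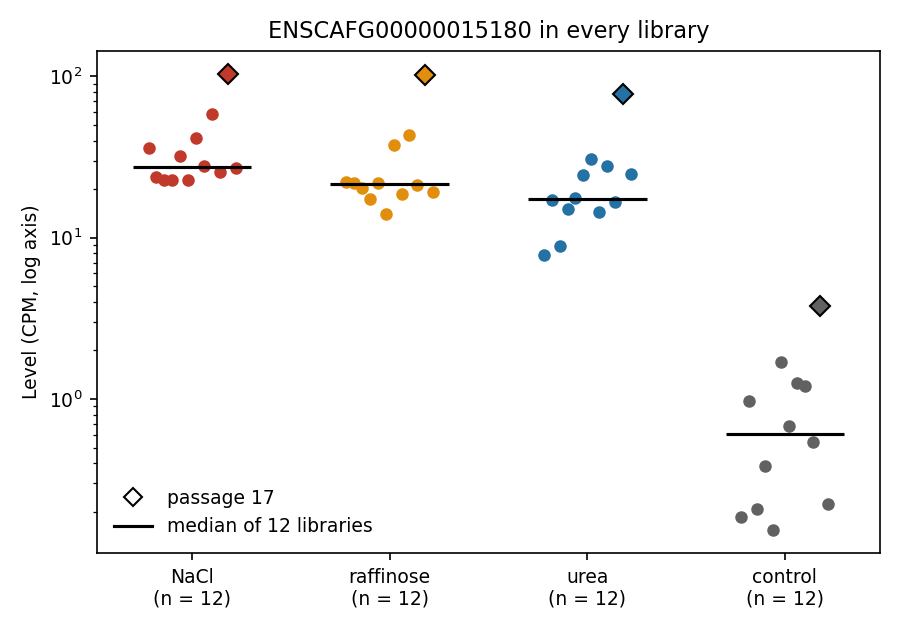
Level of ENSCAFG00000015180 in CPM (log axis) in the 12 libraries of each group. Points are libraries, diamonds are the libraries of passage 17 and lines are group medians; each solute group lies wholly above control, and passage 17 is the highest library in every group.

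Mean levels were 37.02 ± 23.5 CPM after NaCl, 29.89 ± 24.0 after raffinose and 23.6 ± 18.5 after urea, against 0.9392 ± 1.02 CPM in control (SD, n = 12 each). The fitted log2 fold changes over control, on the scale of edgeR's model, were 5.21 ± 0.43 for NaCl, 4.91 ± 0.43 for raffinose and 4.57 ± 0.43 for urea (SE). These correspond to 37.0-fold, 30.1-fold and 23.8-fold. Of the other tested genes, 39 had a higher log2 fold change after NaCl, 68 after raffinose and 0 after urea. It was the single tested gene with a log2 fold change of 4 or more with all 3 solutes, 17 genes reached 2 with all 3, and by the smallest of the 3 fold changes the next gene stood at 3.0.

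The control level rests on few reads. Control libraries held between 1 and 54 reads of the gene (median 7, 140 in all), while NaCl libraries held 238 to 1070, raffinose libraries 135 to 1175 and urea libraries 73 to 851. The ratio to the control library of the same passage had a median of 54.1 for NaCl (13.4 to 208), 42.4 for raffinose (8.28 to 142) and 35.2 for urea (11.5 to 115). The highest of these ratios, all at passage 8, stand on a single control read. Their 95% counting intervals there were 37.2 to 8254 for NaCl, 25.1 to 5652 for raffinose and 20.1 to 4618 for urea. At passage 17, where control had 54 reads, the ratios were 27.66 for NaCl (21.04 to 37.07), 26.95 for raffinose (20.52 to 36.1) and 20.67 for urea (15.69 to 27.75). Relative counting error was thus smallest at passage 17, where the gene was highest in all media. These intervals hold for that passage alone and leave out the spread between passages. The ratios of passage 17 lay below the medians of 54.1, 42.4 and 35.2. Without passage 17 the fitted log2 fold changes over control were 5.47 ± 0.3 for NaCl, 5.07 ± 0.3 for raffinose and 4.76 ± 0.3 for urea (SE).

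Scaled by exon length, the gene stood below the median of tested genes even after the solutes. Its mean level was 8.56 CPM per kb after NaCl, 6.91 after raffinose and 5.45 after urea, against 0.217 CPM per kb in control. On that scale 39.8% of tested genes were lower than it after NaCl, 35.3% after raffinose and 29.7% after urea, against 2.51% in control.

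The 3 solutes were next set against each other. The choice of the gene used each solute against control and not these differences, though the same libraries enter both. With the 12 libraries of a group treated as independent, no pair of solutes passed the threshold of 0.05 in edgeR's quasi-likelihood test. The log2 difference was 0.30 ± 0.31 for NaCl over raffinose (95% interval -0.31 to 0.91, adjusted p = 0.569), 0.64 ± 0.31 for NaCl over urea (0.02 to 1.25, adjusted p = 0.0632) and 0.34 ± 0.31 for raffinose over urea (-0.28 to 0.96, adjusted p = 0.327). NaCl over urea did pass without passage 17 (0.72 ± 0.21, adjusted p = 0.00192). Scaled by library totals only, NaCl over raffinose was 0.37, NaCl over urea 0.52 and raffinose over urea 0.15. None of these passed (edgeR adjusted p = 0.432, 0.122 and 0.662), and the SE of each was 0.31. With TMM factors and all passages, 15.4% of tested genes passed for NaCl over raffinose, 72.6% for NaCl over urea and 76.0% for raffinose over urea.

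With passage as a replicate block, all 3 pairs passed in the same test, and the order was NaCl over raffinose over urea. NaCl exceeded raffinose by 0.38 ± 0.13 on the log2 scale (interval 0.13 to 0.63, adjusted p = 0.0233) and urea by 0.71 ± 0.13 (0.45 to 0.97, adjusted p = 5.01e-06). Raffinose exceeded urea by 0.33 ± 0.13 (0.07 to 0.59, adjusted p = 0.0226). These are folds of 1.3, 1.63 and 1.26, small beside the step from control. The block was run with TMM factors only. In the blocked fit 28.4% of tested genes passed for NaCl over raffinose, 77.8% for NaCl over urea and 80.4% for raffinose over urea, so most tested genes were called in the comparisons with urea.

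The single passages show how the block acts. NaCl lay above raffinose in 12 of 12 passages, with same-passage differences of log2(CPM + 0.5) from 0.04 at passage 17 to 0.69 at passage 1 (mean 0.37 ± 0.23, SD). Of all tested genes, 3.55% were higher after NaCl in all 12. NaCl lay above urea in 11 of 12 passages (mean 0.73 ± 0.59), with the exception of passage 10 at -0.09, and 30.7% of tested genes did so in at least 11. Raffinose lay above urea in 10 of 12 (mean 0.36 ± 0.58), as did 37.2% of tested genes in at least 10. Urea was the higher at passage 10, where the difference was -0.77, and at passage 19, where it was -0.37. An exact two-sided sign-flip permutation test of these 12 differences, added after the values were seen, gave p = 0.000488 for NaCl over raffinose, the smallest the design can give, 0.000977 for NaCl over urea and 0.0552 for raffinose over urea, or 0.00146, 0.00147 and 0.0552 after adjustment over the 3 pairs. The order of NaCl over raffinose over urea over control held in 10 of 12 passages, and the step from raffinose to urea was the least certain of these steps.

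**Figure D2:**
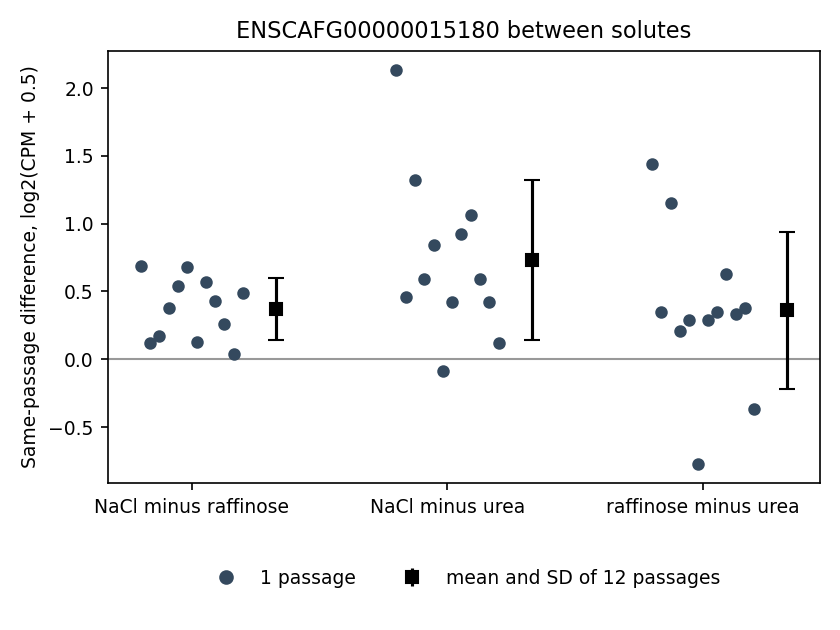
Same-passage differences of ENSCAFG00000015180 between solutes, in log2(CPM + 0.5). Each round point is 1 passage and squares with bars are the mean and SD over 12 passages; all 12 points of NaCl minus raffinose lie above 0, while raffinose minus urea has 2 points below it.

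The gene's level varied between libraries of a group far more than counting error gives. The highest library was 4.55 times the lowest after NaCl, 7.19 times after raffinose and 9.93 times after urea, against 24.5 times in control. The variance of the reads was 157 times the counting variance after NaCl, 210 times after raffinose and 156 times after urea, against 13.8 times in control, where reads are few. Within groups the SD of log2(CPM + 0.5) was 0.78, against a median of 0.22 over the 3952 tested genes within 2-fold of its mean CPM, and 10 of those 3952 genes had a higher SD. In edgeR's fit its biological coefficient of variation was 59.3%, where the trend at its level was 16.5%. A wide spread was one reason for choosing the gene, so these values describe it and test nothing.

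Much of the spread went with the passage. Of the variance that remained within groups, 78.4% lay between passages, taken as means of the 4 libraries of each. The median over all tested genes was 49.7%, and 97.9% of tested genes had a lower share. Part of such a share arises even where libraries of a passage have nothing in common. The share includes passage 17, the passage farthest from the group means, and was not computed without it. Passage 17 had the highest library in all 4 groups, at 104.0 CPM after NaCl, 101.4 after raffinose and 77.74 after urea, against 3.761 in control. Its 4 libraries lay on average 1.85 log2 units above their group means, from 1.65 to 1.98. Passage 14 followed at 0.64 (0.49 to 0.81) and passage 11 at 0.38 (-0.04 to 0.64), while passage 5 was lowest at -0.68 (-1.1 to -0.31). The neighbouring passages 16 and 19 stood at -0.27 each, so the high level at passage 17 was not part of a steady climb.

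**Figure D3:**
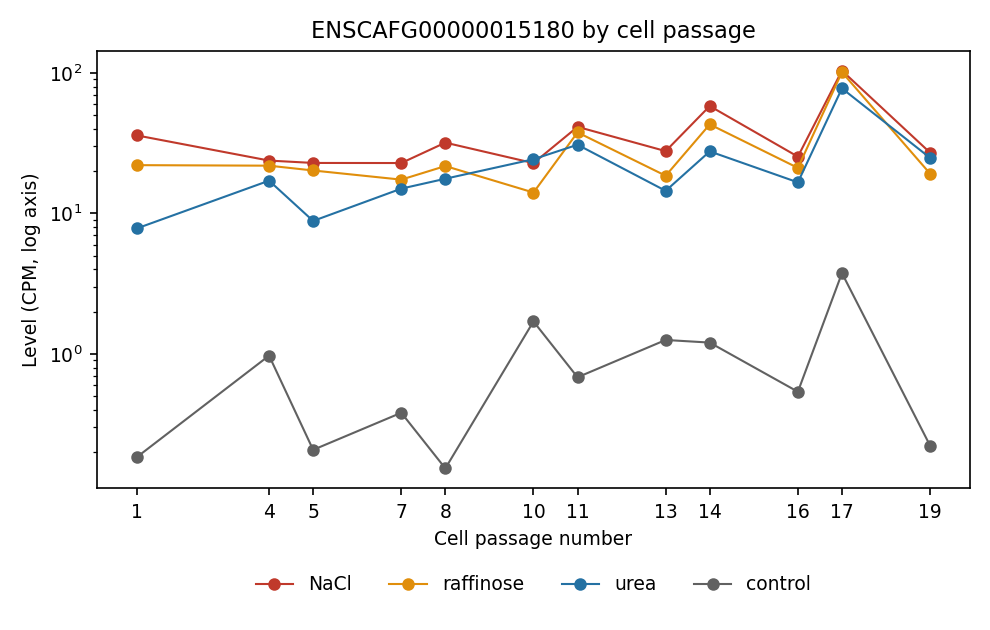
Level of ENSCAFG00000015180 in CPM (log axis) against cell passage number, 1 line per group and 1 library per point. All 4 lines peak at passage 17; the solute lines keep mostly the same order, with urea above NaCl at passage 10 alone.

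The passage 17 libraries were of ordinary depth, with 10.95 M counted reads after NaCl, 13.31 M after raffinose and 10.56 M after urea, against 13.26 M in control; over all 48 libraries totals ran from 3.92 to 16.16 M with a median of 10.51 M. Other genes peaked there too. Passage 17 held the highest library of all 4 groups in 76 tested genes, or 0.601%, where 4.31% of tested genes had their highest library at the same passage in all 4 groups and passage 1 led with 248 genes. Without passage 17 the mean of ENSCAFG00000015180 was 30.93 ± 10.9 CPM after NaCl, 23.39 ± 8.83 after raffinose and 18.68 ± 7.43 after urea, against 0.6827 ± 0.53 in control (SD, n = 11 each). That library supplied 23.4% of the summed CPM of the NaCl group, 28.3% for raffinose and 27.5% for urea, against 33.4% for control.

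The passage pattern of the groups was compared over the 12 passages on log2(CPM + 0.5). Spread between passages was a reason for choosing the gene, so these correlations and the slopes after them are a description, with no test. NaCl and raffinose followed each other most closely of the 6 pairs of groups, at r = 0.96 and rho = 0.85. Without passages 17 and 14, the farthest from the median of raffinose, r was 0.78, and without passage 17 alone it was 0.89. Without passages 17, 14 and 11 it was 0.53. NaCl with urea gave r = 0.72 and rho = 0.48, and raffinose with urea gave r = 0.75 and rho = 0.45. Without passages 17 and 1, the farthest from the median of urea, these r were 0.62 and 0.48, and without passage 17 alone they were 0.36 and 0.39. Without passages 17, 1 and 5 they were 0.62 and 0.57.

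With control, r was 0.59 for NaCl, 0.59 for raffinose and 0.74 for urea, and rho was 0.13, 0.09 and 0.50. Without passages 17 and 10, the farthest from the median of control, r was 0.32, 0.43 and 0.43. Without passage 17 alone r was 0.10 for NaCl with control, 0.07 for raffinose with control and 0.49 for urea with control. Without passages 17, 10 and 13 these r were 0.43, 0.67 and 0.56. The r with control fell without passage 17, as did r of urea with the other solutes, and moved again with further passages left out. These r thus depend on single passages. At 1 to 54 reads the ranks of the control libraries carry a large counting error.

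A straight line through the passages had a positive slope, by an amount that depended on passage 17. The slope was 0.89 ± 0.19 log2 units per 10 passages (SE, edgeR) over all 48 libraries and 0.33 ± 0.15 without passage 17. On sums of the reads of each passage (n = 12 sums) it was 0.76 ± 0.29, and 0.23 ± 0.21 without passage 17. Without the first and the last passage, 1 and 19, it was 1.37 ± 0.21 over single libraries. The SE of 0.19, 0.15 and 0.21 take the 4 libraries of a passage as independent and may be too small. The slope of each solute group minus that of control was -0.49 ± 0.79 for NaCl, -0.29 ± 0.78 for raffinose and 0.14 ± 0.93 for urea, each smaller than its SE.

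The genes around it were then examined, since they had no part in the choice. Within 500 kb on either side the annotation has 24 genes, of which 11 passed the filter on low counts. After NaCl 5 of these 11 rose and 2 fell, where 70.7% of all tested genes were called, 34.6% upward and 36.1% downward. After raffinose 3 rose and 3 fell, against a background of 74.9% (36.7% upward, 38.2% downward). After urea 4 rose and 3 fell, against 52.3% (27.4% upward, 24.9% downward). With 11 genes these counts lie near the background. The median log2 fold change of the 11 was 0.20, 0.13 and 0.06 for NaCl, raffinose and urea, against -0.02, -0.02 and 0.02 over all tested genes. Over the 48 libraries, the deviations of these 11 genes from their group means correlated with those of ENSCAFG00000015180 at r from -0.38 to 0.58. The highest of these, ENSCAFG00000015067 at 216 kb before it (r = 0.58, named after its value was seen), had log2 fold changes of -0.14, -0.08 and 0.03 for NaCl, raffinose and urea, and passed for none of them without the replicate block.

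ENSCAFG00000015215 (28999512 to 29069232, plus strand, 25 exons) starts 1780 bases past the end of ENSCAFG00000015180, in the same orientation. It was barely detected, with 0.165 to 2.62 CPM after NaCl (median 1.52), 0.288 to 1.87 after raffinose (median 1.28) and 0.334 to 2.19 after urea (median 0.871), against 0.0 to 0.92 in control (median 0.259). No library held more than 31 reads of it, and the ranges overlapped. It rose after NaCl (2.08 ± 0.37, edgeR adjusted p = 1.66e-06), raffinose (1.73 ± 0.38, adjusted p = 7.26e-05) and urea (1.48 ± 0.39, adjusted p = 0.00116). It thus rose with all 3 solutes, like the gene before it, by a smaller factor and at a much lower level. Over the 48 libraries its deviations from the group means correlated with those of ENSCAFG00000015180 at r = 0.35, and its highest library was at passage 1 after NaCl, 5 after raffinose and 17 after urea, against 8 in control.

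ENSCAFG00000015177 (28906579 to 28931118, plus strand, 9 exons) ends 25244 bases before the start of ENSCAFG00000015180. It had 0.35 to 1.75 CPM after NaCl (median 1.37), 0.123 to 1.39 after raffinose (median 0.816) and 3.31 to 17.0 after urea (median 6.28), against 0.167 to 1.53 in control (median 0.449). The urea libraries lay wholly above control, and the other groups overlapped it. It rose by 3.62 ± 0.27 after urea (edgeR, adjusted p = 2.51e-16) and by 1.12 ± 0.30 after NaCl (adjusted p = 0.00105). Raffinose did not pass at 0.56 ± 0.33 (adjusted p = 0.117), but did without passage 17 (0.85, adjusted p = 0.00918). The direct comparisons passed, at -2.50 ± 0.24 for NaCl over urea (adjusted p = 3.26e-13) and -3.06 ± 0.26 for raffinose over urea (adjusted p = 3.41e-15), so this neighbour ranked the solutes in another order. Its deviations from the group means correlated with those of ENSCAFG00000015180 at r = 0.55, and its highest library was at passage 17 after NaCl and urea and in control, and at passage 14 after raffinose.

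The next tested genes out did not share the pattern. ENSCAFG00000023327, 118 kb before, fell after NaCl (-0.49 ± 0.10, edgeR adjusted p = 2.16e-05) and raffinose (-0.54 ± 0.10, adjusted p = 5.04e-06) and did not pass after urea (0.18 ± 0.10, adjusted p = 0.11), though it did with the replicate block (adjusted p = 0.0484) or without passage 14 (adjusted p = 0.0244). ENSCAFG00000015235, 96.4 kb after, rose after urea (0.79 ± 0.12, adjusted p = 1.32e-07) and did not pass after NaCl (0.20 ± 0.12, adjusted p = 0.117, and 0.0219 with the replicate block) or raffinose (-0.10 ± 0.12, adjusted p = 0.451). Their deviations correlated with those of ENSCAFG00000015180 at r = -0.05 and 0.07.

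**Figure D4:**
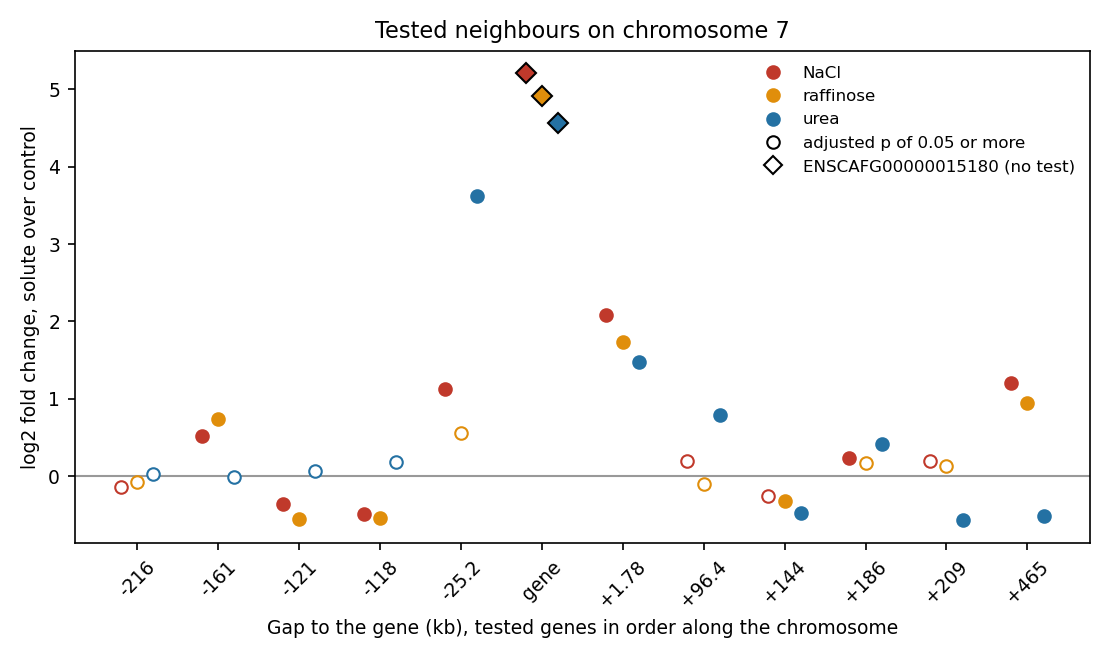
Log2 fold changes over control of the 11 tested genes within 500 kb of ENSCAFG00000015180, in order along the chromosome and labelled by the gap in kb; filled points passed at an adjusted p under 0.05 and diamonds are the gene itself, with no test. The gene 1.78 kb after it is raised with all 3 solutes, the gene 25.2 kb before it most with urea, and those farther out lie on both sides of 0.

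The last question was which other genes rise and fall with it from library to library. For this, group means were removed from log2(CPM + 0.5), and the deviations were correlated over the 48 libraries for the 12188 other tested genes with a mean of at least 1 CPM. These correlations are a description: libraries of a passage are not independent, and the 4 libraries of passage 17 weigh on all of them. The quartiles of r were -0.18 and 0.19, with 24 over 0.7 and 18 under -0.7. Without passage 17 these counts were 8 and 1, and 5 genes were over 0.7 both times.

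ENSCAFG00000007673 (chromosome 29, 18802897 to 18883675, 20 exons) was most like it, at r = 0.82 over all 48 libraries and 0.72 without passage 17. It had 95.4 to 166 CPM after NaCl (median 120), 82.0 to 215 after raffinose (median 106) and 70.3 to 223 after urea (median 139), against 35.7 to 80.4 in control (median 46.3), and passage 17 was its highest library in all 4 groups. It rose after NaCl (1.30 ± 0.16, edgeR adjusted p = 1.79e-10), raffinose (1.27 ± 0.16, adjusted p = 3.07e-10) and urea (1.47 ± 0.16, adjusted p = 2.16e-11). It was also the most like gene when group means were kept (r = 0.93). Like ENSCAFG00000015180 it was higher after each solute than in control, but its log2 fold change was highest with urea, where that of ENSCAFG00000015180 was lowest.

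ENSCAFG00000005561 (chromosome 22, 48145770 to 48180438, 27 exons) came next, at r = 0.78 and at 0.73 without passage 17. It is an abundant gene, at 541 ± 38 CPM after NaCl, 533 ± 76 after raffinose and 567 ± 96 after urea, against 363 ± 56 in control (SD, n = 12 each), and it too peaked at passage 17 in all 4 groups. Its log2 fold changes of 0.57, 0.55 and 0.64 passed for all 3 solutes (edgeR, adjusted p = 2.84e-08, 5.64e-08 and 4.93e-09). With group means kept, ENSCAFG00000031424 (chromosome 22, 47778845 to 47814061, 2 exons) had the second highest likeness, at r = 0.92, and it had the highest correlation of deviations without passage 17, at 0.74. It lies on chromosome 22 near ENSCAFG00000005561 and its log2 fold changes over control were 1.02 for NaCl, 1.04 for raffinose and 0.67 for urea, given as a description because group means entered its choice.

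A pair of genes moved the other way. ENSCAFG00000012319 (chromosome 5, 14867920 to 14870357, 5 exons) had r = -0.77, and -0.63 without passage 17. It had 38.4 ± 10 CPM after NaCl, 39.6 ± 13 after raffinose and 31.5 ± 9.9 after urea, against 104 ± 21 in control (SD, n = 12 each), and fell with each solute (-1.44, -1.39 and -1.72; edgeR, adjusted p = 2.71e-11, 5.53e-11 and 6.48e-13). ENSCAFG00000006902 (chromosome 1, 116938234 to 116947100, 7 exons) had r = -0.77, and -0.60 without passage 17, and was also lower with each solute (-2.76, -2.87 and -4.06; edgeR, adjusted p = 6.29e-18, 1.19e-18 and 4.8e-22). At passage 17, where ENSCAFG00000015180 stood 1.85 log2 units above its group means, these genes stood at -0.77 and -0.97. These 4 genes are the extremes of 24 genes over r = 0.7 and 18 under -0.7. An upward call with all 3 solutes is not rare: 1502 of the 12654 tested genes were called higher with each of them. Genes called lower with all 3 were not counted. Taken 1 solute at a time, 36.1% of tested genes were called lower after NaCl, 38.2% after raffinose and 24.9% after urea.

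**Figure D5:**
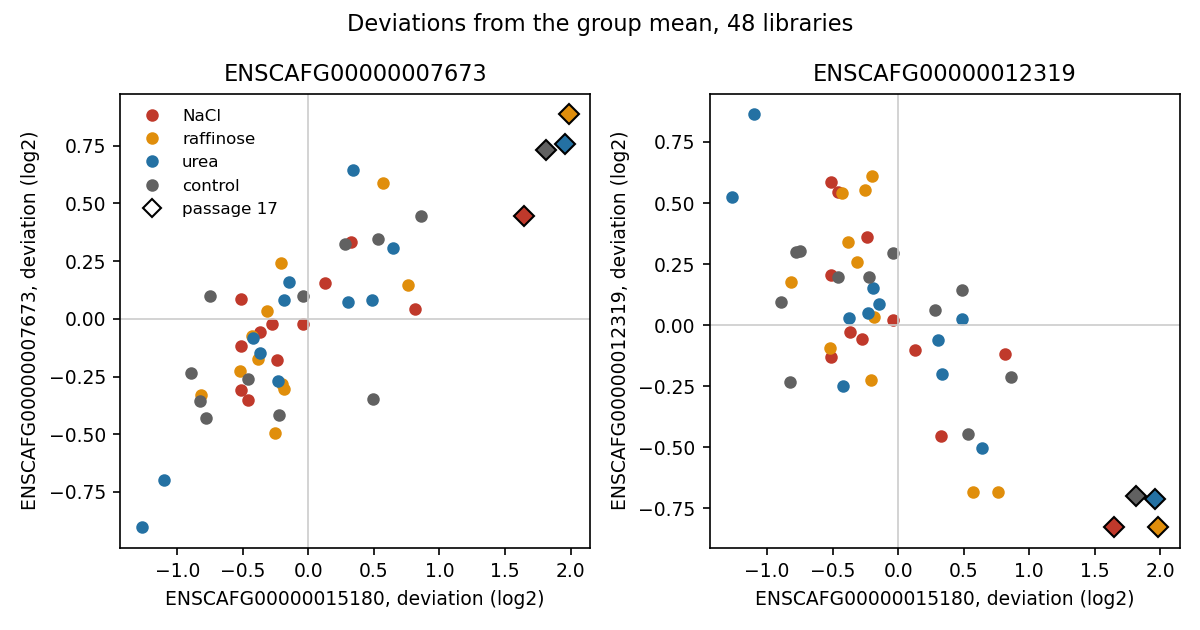
Deviations from the group mean in log2(CPM + 0.5) of ENSCAFG00000015180 (horizontal axes) and of ENSCAFG00000007673 (left) and ENSCAFG00000012319 (right) in 48 libraries. Colours are groups and diamonds are passage 17; the relation is upward at left (r = 0.82) and downward at right (r = -0.77), with passage 17 at the far end of both.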

How the data were processed

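The values are raw counts of single reads in 48 libraries, deposited by the authors in 1 table with each gene's exon positions and length. CASAVA, HISAT2 2.0.5 and featureCounts 1.5.1 are named in the submitters' processing notes. Counting was by gene over exons and without strand, with Ensembl release 87 of CanFam3.1, per the file headers. An added number of unknown meaning stands in the 4 column names of passage 10, which were matched to the libraries of that passage. The table has 0 blank or summary rows and 0 unused columns of values, and 0 of its 32704 identifiers could be paired with a symbol.

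Genes were kept by filterByExpr (12654), scaled by TMM and tested with edgeR 4.0.16 in R 4.3.3 (glmQLFit on 48 libraries with the group as factor, glmQLFTest, Benjamini-Hochberg adjustment over all tested genes, threshold 0.05). The SE is the log2 fold change over the square root of F, and 95% intervals use that SE. Slopes use passage number per 10 passages. Correlations used a pseudocount of 0.5 CPM. Counting intervals are exact and cover counting error only.

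Passage numbers pair the libraries, since the labels give each passage to 1 library per group: deviations of the 72 same-passage pairs correlated at 0.306 on average (from -0.0865 to 0.696, 66 over 0.1), against -0.0276 for the other 792 pairs. No library pair of a group agreed within sampling noise (lowest chi-square per gene 5.08).

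Named genes are the 2 nearest tested neighbours on each side, the 2 most and 2 least like in deviations, and the 2 most like with group means kept. The gene, the lists and the tests were chosen with earlier results of these data known. Alternatives were RLE factors, library totals only, no filter, DESeq2 1.42.0, a passage block, 2-group fits, summed counts, a pseudocount of 2 CPM, Spearman correlations, each passage left out, and passages 1 and 19 left out. Slopes and correlations over passages are given with no p. The sign-flip test and the correlations and summed counts without passage 17 were added after the data were seen. Sequences and marker lists were not used here.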

Additional observations from a re-analysis of the deposited data

How the results depend on the processing

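The log2 fold changes of ENSCAFG00000015180 over control kept their direction and moved by less than the SD of the same-passage differences under every alternative run (RLE, library totals only, no filter, DESeq2, block, 2-group fits, each passage left out): with a passage left out they ran from 5.11 to 5.47 for NaCl, 4.82 to 5.07 for raffinose and 4.43 to 4.76 for urea. Between solutes, the replicate block gave 0.38 (NaCl over raffinose), 0.71 (NaCl over urea) and 0.33 (raffinose over urea), all past the threshold, and the sign-flip test passed at 0.37 and 0.73 for the first 2. Library totals only, without the block, gave 0.37, 0.52 and 0.15, none past the threshold. The first solute of each pair stayed higher in 12, 11 and 10 passages with library totals only. With a passage left out these differences ran from 0.27 to 0.40, 0.55 to 0.72 and 0.28 to 0.40; NaCl over urea passed without passage 17 alone (0.72, adjusted p = 0.00192; 0.00192 to 0.12 over the passages left out). The block raised the genes called for NaCl over raffinose to 3595, against 1948 without it; the neighbours called there were 4 with the block and 1 without a filter, against 2. Of the 11 neighbours, the block called 10 after NaCl (7 without it), 7 after raffinose (6 without it), 8 after urea (7 without it) and 11 for NaCl over urea (8 without it). Of all 12654 tested genes, the block called 9677 after NaCl (8949 without it), 10071 after raffinose (9482) and 7719 after urea (6620). For NaCl over urea it called 9839 (9183 without it), so the block raised the calls over all tested genes. Among the named neighbours it brought past the threshold ENSCAFG00000015235 after NaCl (0.20, adjusted p = 0.0219) and ENSCAFG00000023327 after urea (0.20, adjusted p = 0.0484). Library totals alone brought ENSCAFG00000015235 past the threshold after raffinose (-0.33), and ENSCAFG00000015177 passed after raffinose without passage 17 (0.85), as did ENSCAFG00000023327 after urea without passage 14 (0.25).

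The slope with passage was 0.76 with summed counts, 0.23 with summed counts without passage 17, 1.37 without passages 1 and 19, and 0.33 to 1.14 with a passage left out, where 0.33 is without passage 17. The solute by passage differences ran from -1.03 to 0.01 for NaCl, -0.79 to 0.07 for raffinose and -0.38 to 0.54 for urea; the sign turned without passage 1 for NaCl (0.01) and raffinose (0.07) and without passages 4 (-0.10) or 19 (-0.38) for urea. Correlations over passages were, without the 2 farthest passages, 0.32 (NaCl with control), 0.43 (raffinose with control), 0.43 (urea with control), 0.62 (NaCl with urea) and 0.48 (raffinose with urea), and without passage 17 0.10, 0.07, 0.49, 0.36 and 0.39 in the same order. The cause of these changes was not tested. The control reads of the gene, 1 to 54 per library, limit how well its fold changes are known.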
